A study of Mus musculus with 9 samples.

Results

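The genes described here are the chemokine ligands and chemokine receptors of cultures labelled as mouse retinal ganglion cells (RGCs). They were taken by gene symbol as all rows of the expression table named Ccl, Cxcl, Ccr, Cxcr or Ackr with a number, together with Cx3cl1, Cx3cr1, Xcl1, Xcr1, Pf4 and Ppbp. The rule used no measured value and found 63 of 22322 genes, of which 41 encode ligands and 22 encode receptors. RNA was sequenced from 3 groups of 3 libraries each. Normal RGCs were wild-type mouse RGCs in culture, aging RGCs were the same cells made to age with D-galactose, and aging RGCs + USCs medium had D-galactose and then medium conditioned by urine-derived mesenchymal stem cells (USCs), with the stem cells removed. Libraries were made from mRNA enriched with oligo(dT), and the study describes the 3 samples of a group as replicated wells, so the p-values measure the spread between wells.

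Chemokines are small secreted proteins that bind G protein-coupled receptors on leukocytes and other cells and direct their migration. CC, CXC, CX3C and XC chemokines are named by the spacing of their first cysteines, and CXC chemokines with a Glu-Leu-Arg (ELR) motif attract neutrophils. Atypical receptors bind chemokines without G protein signalling. In the retina, neurons are a known source of Cx3cl1 (fractalkine), whose receptor Cx3cr1 marks microglia, and Ccl2, the main attractant of monocytes, is known to rise in injured tissue.

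Expected counts, which are estimated numbers of reads per gene, summed to between 18189610 and 22342283 per library. After the low-count filter of edgeR 12145 genes remained, among them 24 of the 63 chemokine and receptor genes, and levels are given as CPM, counts scaled to library size with TMM factors, with SD over n = 3 libraries. Adjusted p-values are from the quasi-likelihood test of edgeR, adjusted by the Benjamini-Hochberg method over all 12145 genes, and genes are called DEGs at an adjusted p under 0.05 and at least a 2-fold change. The 3 comparisons share libraries, so they are not independent of each other. Of the defining markers of RGCs, Rbpms was at 48.0 to 61.2 CPM in the group means and Nefl at 17.3 to 63.6 CPM. Isl1 was at 12.0 to 18.9 CPM, Tubb3 at 2.59 to 21.2 CPM and Pou4f1 at 0.423 to 0.876 CPM, and these 5 of the 12 RGC markers passed the filter. Pou4f2 and Pou4f3 had 0 counts in all 9 libraries, and Thy1 and Nefh had at most 1 count. Slc17a6 had 0 to 4 counts in a library, Sncg 3 to 7 and Nefm 1 to 24. The 12 RGC markers summed to 96.5 to 154 CPM. The 6 glial markers summed to 1760 to 2170 CPM, mostly Vim, with Glul at 95.9 to 128 CPM in the group means. Gfap, Slc1a3, Aqp4 and Rlbp1 had at most 3 counts in a library. The 7 epithelial markers, mostly Krt8, Krt18 and Krt19, summed to 1050 to 1280 CPM. Epcam was at 1.42 to 2.06 CPM, Cdh1 had at most 5 counts in a library, Krt14 at most 2 and Krt5 0. The 7 fibroblast markers summed to 247 to 515 CPM, mostly Col3a1. Col1a1, Pdgfra and Pdgfrb were at 1.15 to 14.7 CPM in the group means, and Col1a2, Dcn and Lum had at most 12 counts in a library. The 4 endothelial markers summed to 2.18 to 13.9 CPM and the 4 photoreceptor markers to at most 0.719 CPM. The label was thus only partly borne out by these markers.

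RefSeq start site windows on GRCm38.p6, from 250 bases before to 50 bases after each start, were matched for 48 of the 63 genes. The bases before the start are printed for the ligand that fell most with USCs medium against aging RGCs (Ccl20), the ligand with the largest change in CPM in that comparison (Cx3cl1), the one that rose (Cxcl1), its near neighbour that did not pass the test (Cxcl2) and the interferon-inducible Cxcl10. In each, 120 bases are given from the 5′ to the 3′ end of the gene's own strand, in lower case, and capitals mark a match to the NF-kB consensus on either strand.
Ccl20, chr1:83116646-83116765, plus strand: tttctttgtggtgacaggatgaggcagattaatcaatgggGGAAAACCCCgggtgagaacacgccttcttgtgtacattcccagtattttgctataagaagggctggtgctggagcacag
Cx3cl1, chr8:94772060-94772179, plus strand: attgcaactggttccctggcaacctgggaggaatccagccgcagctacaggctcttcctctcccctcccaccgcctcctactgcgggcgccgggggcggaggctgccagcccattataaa
Cxcl1, chr5:90891125-90891244, plus strand: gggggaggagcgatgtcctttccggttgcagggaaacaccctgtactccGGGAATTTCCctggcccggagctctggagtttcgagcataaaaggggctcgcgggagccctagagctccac
Cxcl2, chr5:90903779-90903898, plus strand: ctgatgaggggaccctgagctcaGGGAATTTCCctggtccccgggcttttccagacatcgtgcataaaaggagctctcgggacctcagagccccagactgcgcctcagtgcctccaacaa
Cxcl10, chr5:92348890-92349009, minus strand: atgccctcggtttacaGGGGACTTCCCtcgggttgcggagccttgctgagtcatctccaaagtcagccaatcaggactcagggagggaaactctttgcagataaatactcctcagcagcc

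The first base of the match lay 80 bases before the start in Ccl20, 71 in Cxcl1 and 97 in Cxcl2, and Cxcl10 had a pair of overlapping matches at 104 and 103 bases before it. Cxcl1 and Cxcl2 carried the same 10 letters. The 120 bases of Cx3cl1 held no match, which says only that these letters are not in this window. In the GENCODE M21 annotation Cx3cl1 starts further upstream, at chr8:94772009, so by that start all its printed bases lie within the gene. Its searched window began at 94771930, so few bases before the GENCODE start were covered. The GENCODE starts of Cxcl2 (90903871) and Cxcl1 (90891241) also lie before the last of their printed bases. Over the whole windows, an NF-kB match was in 11 of 55 promoters of chemokine and receptor genes (20.0%) and in 5.8% of the 32851 promoters in the table. An AP-1 motif (TGANTCA, both strands) was in 18.2% and 7.81%, and a STAT motif (TTCNNNGAA, both strands) in 5.45% and 8.3%, respectively. Of the genes tested, Ccl2, Ccl4, Ccl5, Ccl7, Cxcl5, Cxcl16 and Ccr10 had no matched window and were not searched. Among the 17 genes tested that had a window, an NF-kB match was found for Ccl20, Cxcl10, Ccl27a, Ccl9, Cxcl2 and Cxcl1. Their log2 fold changes with USCs medium against aging RGCs were -2.99, -1.08, -0.43, -0.12, -0.02 and 0.56 in that order, so genes with a match went in both directions. An AP-1 match was found for Cxcl10, Ccl27a, Ccl28, Ccl9 and Ppbp. A match is a description of the sequence and no evidence that a factor was bound.

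Most of the signal came from 3 ligands. Summed over all 63 genes, the level was 361 ± 16.1 CPM in normal RGCs, 339 ± 7.17 in aging RGCs and 272 ± 7.13 in aging RGCs + USCs medium. Ccl2, Cx3cl1 and Cxcl1 together made up 79.0% to 83.5% of that sum in every library. The share of Ccl2 ranged from 45.2% to 46.4% in the normal group, from 39.0% to 40.4% in the aging group and from 50.4% to 51.5% with USCs medium. Cx3cl1 made up 26.3% to 29.0%, 30.3% to 33.3% and 14.5% to 14.8% in the same order. The share of Cxcl1 was at most 9.68% in normal and aging RGCs and 14.7% to 17.5% with USCs medium. The sum was 66.7 CPM lower with USCs medium than in aging RGCs, and Cx3cl1 alone was 69.3 CPM lower.

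**Figure D1:**
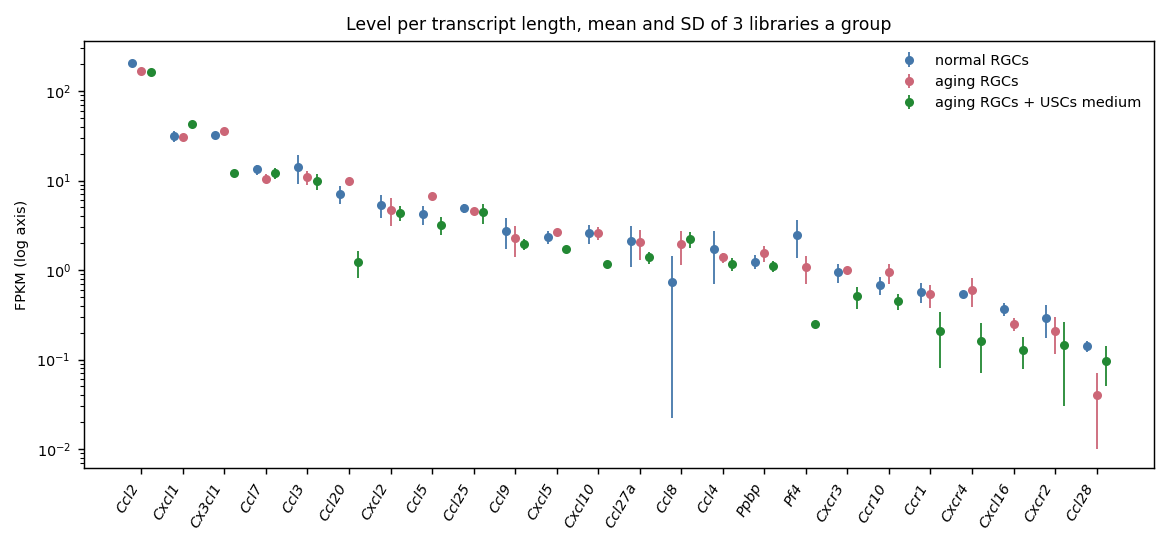
Level per transcript length (FPKM, log axis) of the 24 chemokine and receptor genes tested, with points for the means and bars for the SD of 3 libraries in each of the 3 groups. Ccl2 is highest in each group at 164 to 208 FPKM, and the 5 receptors (Cxcr3, Ccr10, Ccr1, Cxcr4 and Cxcr2) lie at or below 1.01 FPKM.

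Per transcript length, Ccl2 was the most abundant at 208 ± 13.0 FPKM in normal RGCs. Cx3cl1 (32.0 ± 1.91 FPKM) and Cxcl1 (31.5 ± 4.34 FPKM) came next, and did not differ beyond their spread in normal RGCs. In aging RGCs + USCs medium Cxcl1 was at 43.2 ± 3.23 FPKM and Cx3cl1 at 12.0 ± 0.611 FPKM. The monocyte attractants Ccl7 and Ccl3 followed at 9.87 to 14.3 FPKM in the group means. All receptors tested were low, with group means of 0.147 FPKM (Cxcr2 with USCs medium) to 1.01 FPKM (Cxcr3 in aging RGCs), as the plot of FPKM by gene shows.

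Aging RGCs against normal RGCs addressed the effect of D-galactose. Of the 24 genes tested, 4 rose (16.7%, beside 23.6% of all genes tested) and 4 fell (16.7%, beside 23.0%). Ccl20, Ccl5, Ccl8 and Cx3cl1 rose, and Ccl2, Ccl7, Ccl28 and Pf4 fell. With the 2-fold threshold 1 rose (Ccl8, beside 1.09% of all genes) and 2 fell (Ccl28 and Pf4, beside 1.56%). The groups did not overlap for 7 of the 24 genes (29.2%), beside 53.0% of all genes. The median log2 fold change was -0.04 over the 24 genes and 0.0 over all genes tested. The shares that passed by adjusted p alone were below the background, and the 3 genes past the 2-fold threshold each lost that call when some single libraries were left out.

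Aging RGCs + USCs medium against aging RGCs addressed the effect of the conditioned medium as a whole. The paper grew USCs in a special urine stem cell medium and RGCs in high glucose medium with serum. No sequenced group had stem cell medium that was not conditioned. Differences in the base medium and substances released by USCs thus cannot be told apart. Cxcl1 rose (1 of 24, 4.17%, beside 27.1% of all genes tested), and 10 of 24 fell (41.7%, beside 26.0%), namely Ccl20, Ccl5, Cx3cl1, Cxcl5, Cxcl10, Pf4, Ccr1, Ccr10, Cxcr3 and Cxcr4. At least 2-fold, none rose (beside 1.24%) and 6 fell (25.0%, beside 4.21%), which were Ccl20, Cx3cl1, Cxcl10, Pf4, Ccr1 and Cxcr4. The groups did not overlap for 13 of 24 genes (54.2%, beside 59.8%), and the median log2 fold change was -0.41, beside -0.01 over all genes tested. At an unadjusted p under 0.05 the number was 12 genes.

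Against normal RGCs, aging RGCs + USCs medium had 2 of 24 genes higher (Ccl8 and Cxcl1, 8.33%, beside 30.6% of all genes) and 10 lower (41.7%, beside 29.9%). The 10 were Ccl2, Ccl3, Ccl20, Cx3cl1, Cxcl10, Cxcl16, Pf4, Ccr1, Cxcr3 and Cxcr4. At least 2-fold, Ccl8 was higher (4.17%, beside 1.47%) and 7 were lower (29.2%, beside 5.24%). The groups did not overlap for 12 of 24 genes, beside 63.8% of all genes, and the median log2 fold change was -0.47, beside -0.01. These counts describe the genes that passed the filter, and a low gene passes it more easily when one group is high.

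**Figure D2:**
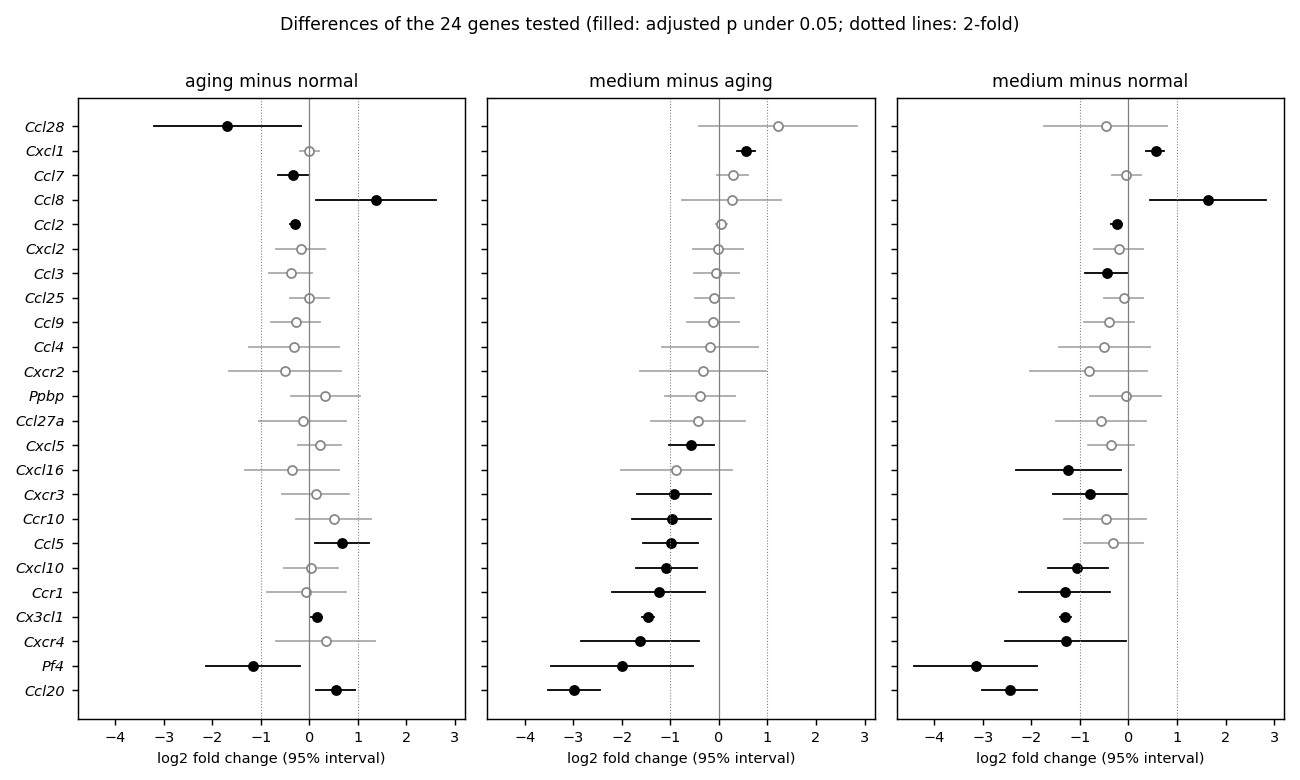
Log2 fold change of the 24 chemokine and receptor genes tested in 3 comparisons, with 95% intervals as bars, filled points for an adjusted p under 0.05 and dotted lines at a 2-fold change. In the comparison of aging RGCs + USCs medium with aging RGCs, 10 filled points lie below 0 and 1 (Cxcl1, 0.56) above it.

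Cx3cl1 (chr8:94772009-94782427) encodes fractalkine, a membrane-bound ligand that can be shed. Its level was 99.6, 91.7 and 103 CPM in normal RGCs, 105, 111 and 111 CPM in aging RGCs, and 40.9, 38.7 and 39.8 CPM in aging RGCs + USCs medium. All aging libraries were above the normal ones and all libraries with USCs medium lay far below both. The log2 fold change was 0.15 (SE 0.0454, adjusted p = 0.0067) between aging and normal RGCs. With USCs medium it was -1.45 (SE 0.0503, adjusted p = 2.46e-19) against aging RGCs and -1.30 (SE 0.0503, adjusted p = 2.57e-18) against normal RGCs, a level 2.74-fold and 2.47-fold lower. The small rise in aging RGCs was lost without normal replicate 2 (adjusted p = 0.0624). Its receptor Cx3cr1 was not tested and had 0 to 5 counts in a library. Xcl1, the XC ligand, had 0 counts in all 9 libraries.

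The ELR-positive CXC ligands attract neutrophils through Cxcr2, and 4 of the 6 were tested. Cxcl1 (chr5:90891241-90893115) was at 25.9, 33.7 and 28.0 CPM in normal RGCs, 28.8, 30.2 and 28.3 CPM in aging RGCs, and 41.3, 46.7 and 40.7 CPM in aging RGCs + USCs medium. The 3 libraries with USCs medium were above the other 6, and normal and aging RGCs overlapped. The log2 fold change was 0.56 (SE 0.0769, adjusted p = 5.63e-07) against aging RGCs and 0.56 (SE 0.0760, adjusted p = 3.22e-07) against normal RGCs, and between aging and normal RGCs its 95% interval was -0.20 to 0.19.

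Cxcl2, the neighbour of Cxcl1, was at 7.67, 5.48 and 4.29 CPM in normal RGCs, 7.19, 4.33 and 4.05 CPM in aging RGCs, and 5.86, 3.97 and 5.53 CPM with USCs medium. All 3 groups overlapped, and the difference between USCs medium and aging RGCs was -0.02 on the log2 scale (95% interval -0.53 to 0.50, adjusted p = 0.957). Cxcl5, which is made by epithelial cells, was at 3.55, 3.0 and 4.19 CPM in normal RGCs, 4.49, 3.86 and 4.05 CPM in aging RGCs, and 2.93, 2.98 and 2.46 CPM with USCs medium. The libraries with USCs medium were the lowest 3 of the 9. Cxcl5 fell by 0.57 on the log2 scale with USCs medium against aging RGCs (SE 0.189, adjusted p = 0.0133), a call that was lost without aging replicate 1 (0.0537) or medium-treated replicate 3 (0.0596). Ppbp, a platelet chemokine, ranged from 1.11 to 1.56 CPM in the normal group, from 1.35 to 2.01 in the aging group and from 1.08 to 1.44 with USCs medium, and passed the test in none of the comparisons. Cxcl3 had at most 3 counts in a library and Cxcl15 at most 2.

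The other CXC ligands lack the ELR motif, and 3 of 9 were tested. Cxcl10 (chr5:92346638-92348889), an interferon-inducible attractant of T cells, was at 2.34, 2.37 and 3.5 CPM in normal RGCs, 3.14, 2.32 and 2.94 CPM in aging RGCs, and 1.34, 1.34 and 1.28 CPM in aging RGCs + USCs medium. Normal and aging RGCs overlapped, and the 3 libraries with USCs medium lay below all others. Cxcl10 fell by 1.08 on the log2 scale (SE 0.253, adjusted p = 0.000704) against aging RGCs and by 1.05 (SE 0.251, adjusted p = 0.000722) against normal RGCs. Its exons overlap those of Art3 on the opposite strand, and it was not stated whether strand was used in counting, so the origin of these reads is uncertain. Cxcl11, also interferon-inducible, was not tested and had 1, 5 and 2 counts in normal RGCs, 11, 7 and 7 in aging RGCs, and 0, 3 and 0 with USCs medium. Cxcl9 had at most 2 counts in a library.

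Pf4, or platelet factor 4 (chr5:90772435-90773383), was at 0.866, 1.26 and 2.12 CPM in normal RGCs, 0.379, 0.773 and 0.709 CPM in aging RGCs, and 0.154, 0.149 and 0.154 CPM with USCs medium, where each library held 3 counts. The groups were ordered from normal over aging to USCs medium without overlap. Pf4 fell by 1.16 on the log2 scale in aging against normal RGCs (SE 0.395, adjusted p = 0.0169). With USCs medium it fell by 1.99 against aging RGCs (SE 0.596, adjusted p = 0.00608) and by 3.15 against normal RGCs (SE 0.514, adjusted p = 5.79e-06). The call in aging RGCs was lost without normal replicate 3 (0.182) or aging replicate 1 (0.0952). A level of 3 counts in a library, 0.13 to 0.162 CPM, is also the limit that a count of 0 allows, which covers counting error only.

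Cxcl16 (chr11:70453983-70459984), a transmembrane ligand of Cxcr6, was at 0.693, 0.921 and 0.937 CPM in normal RGCs, 0.541, 0.721 and 0.709 CPM in aging RGCs, and 0.411, 0.198 and 0.461 CPM with USCs medium. The libraries with USCs medium were below the other 6, while normal and aging RGCs overlapped. Cxcl16 fell by 1.24 against normal RGCs on the log2 scale (SE 0.440, adjusted p = 0.0168), and its difference to aging RGCs was -0.88 (95% interval -2.02 to 0.26, adjusted p = 0.115). The call was lost without normal replicate 2 (0.0507), normal replicate 3 (0.0528) or medium-treated replicate 2 (0.0972). Its exons overlap those of Zmynd15 on the opposite strand. Cxcl17, a mucosal chemokine, was not tested and had 3, 0 and 0 counts in normal RGCs, 4, 7 and 8 in aging RGCs, and 5, 12 and 10 with USCs medium. Cxcl12, the ligand of Cxcr4, had 0, 6 and 3 counts in normal RGCs, 9, 0 and 0 in aging RGCs, and 0 in each library with USCs medium. Cxcl13 had at most 6 counts in a library.

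**Figure D3:**
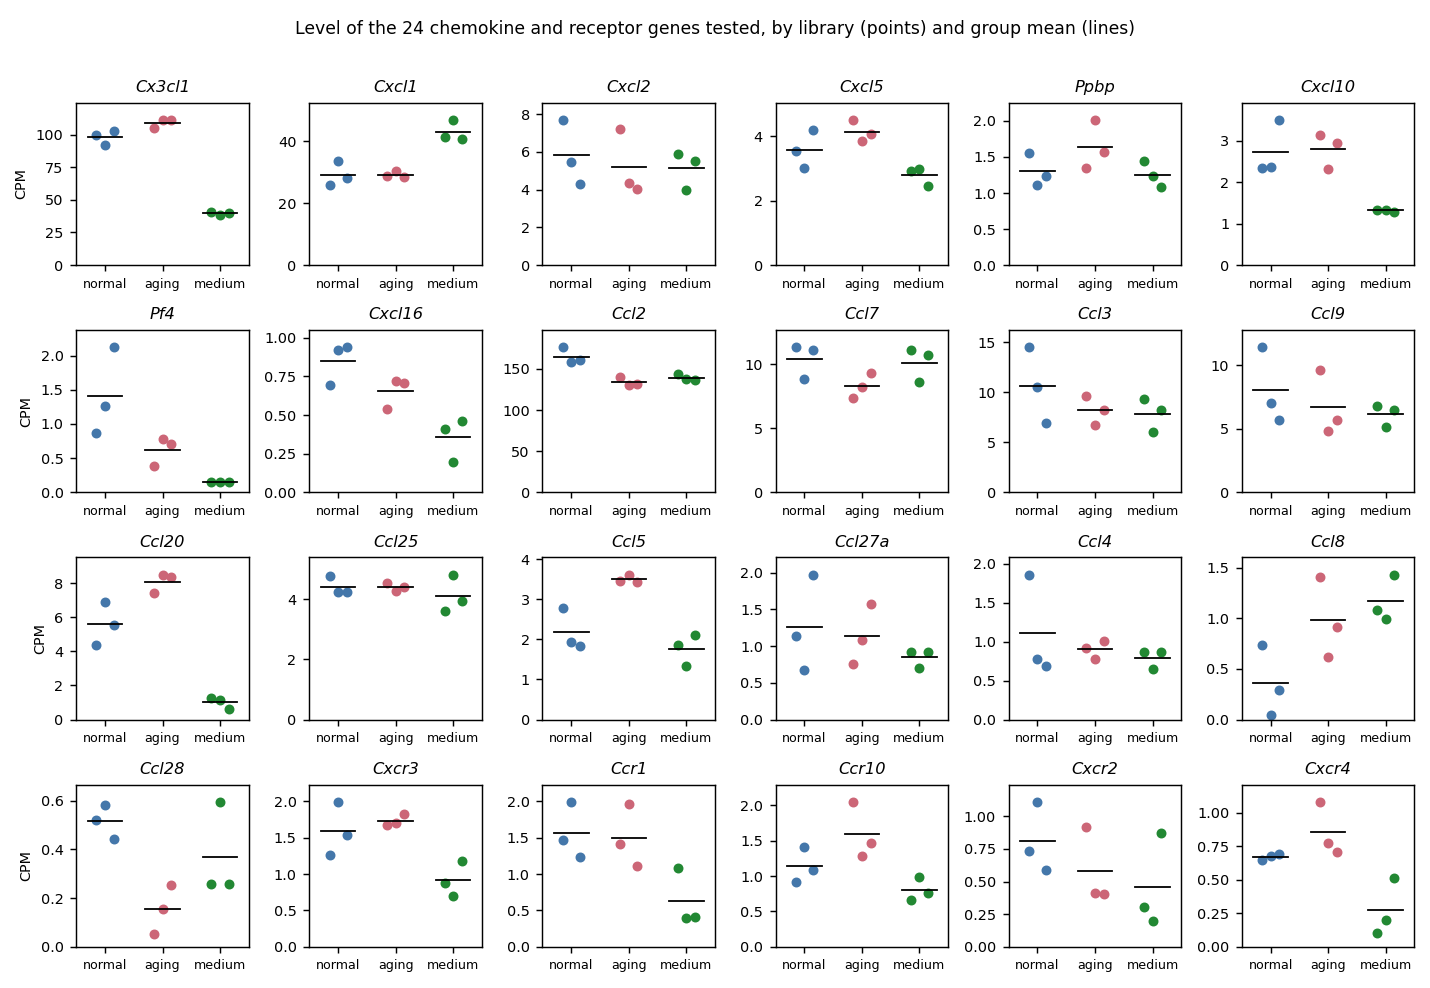
Level in CPM of the 24 chemokine and receptor genes tested, with 1 point per library and a line at the mean of the 3 libraries of a group (normal, aging, and medium for aging RGCs + USCs medium). Ccl20 is at 0.615 to 1.28 CPM and Cx3cl1 at 38.7 to 40.9 CPM with USCs medium, below every other library, and Cxcl1 is above every other library at 40.7 to 46.7 CPM.

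The CC ligands were the largest class, with 24 genes of which 11 were tested. Ccl20 (chr1:83116766-83119167), the ligand of Ccr6 on T helper and dendritic cells, was at 4.37, 6.88 and 5.53 CPM in normal RGCs, 7.41, 8.5 and 8.35 CPM in aging RGCs, and 1.28, 1.14 and 0.615 CPM in aging RGCs + USCs medium. The groups did not overlap, with aging RGCs highest and USCs medium lowest. The log2 fold change was 0.54 (SE 0.166, adjusted p = 0.00909) in aging against normal RGCs, and this rise was lost without normal replicate 1 (0.0871). With USCs medium Ccl20 fell by 2.99 against aging RGCs (SE 0.221, adjusted p = 4.81e-12), 7.94-fold, and by 2.45 against normal RGCs (SE 0.229, adjusted p = 3.13e-10), 5.47-fold. Its receptor Ccr6 had 0 counts in all 9 libraries, which allows up to 0.162 CPM.

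Ccl5 (RANTES), an attractant of T cells, was at 2.77, 1.94 and 1.83 CPM in normal RGCs, 3.46, 3.61 and 3.44 CPM in aging RGCs, and 1.85, 1.34 and 2.1 CPM with USCs medium. Aging RGCs were above both other groups, which overlapped each other. Ccl5 rose by 0.67 on the log2 scale in aging RGCs (SE 0.225, adjusted p = 0.0149) and fell by 0.99 with USCs medium against aging RGCs (SE 0.235, adjusted p = 0.000786). Between USCs medium and normal RGCs the difference was -0.32 (95% interval -0.92 to 0.29, adjusted p = 0.274). The rise in aging RGCs was lost without normal replicate 2 (0.0553) or normal replicate 3 (0.076).

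Ccl2 (chr11:82035571-82037453), the most abundant of all, was at 176, 158 and 161 CPM in normal RGCs, 140, 130 and 132 CPM in aging RGCs, and 144, 138 and 136 CPM with USCs medium. Normal RGCs were above the other groups, which overlapped. Ccl2 fell by 0.30 on the log2 scale in aging against normal RGCs (SE 0.0425, adjusted p = 1.54e-06) and was 0.05 higher with USCs medium than in aging RGCs (95% interval -0.05 to 0.16, adjusted p = 0.321). Its receptor Ccr2 had 1 count over all 9 libraries. Ccl7, which shares receptors with Ccl2 and lies beside it, was at 11.3, 8.82 and 11.1 CPM in normal RGCs, 7.35, 8.24 and 9.27 CPM in aging RGCs, and 11.1, 8.58 and 10.7 CPM with USCs medium. The groups overlapped. Ccl7 fell by 0.33 in aging RGCs (SE 0.127, adjusted p = 0.0363), a call lost without normal replicate 1 (0.137), normal replicate 3 (0.114), aging replicate 1 (0.156) or aging replicate 2 (0.0784). Its difference of 0.29 between USCs medium and aging RGCs (adjusted p = 0.0627) passed without aging replicate 3 (0.0362) or medium-treated replicate 2 (0.0181).

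Ccl8 (chr11:82115185-82116799), a further monocyte attractant of the same gene cluster, was at 0.736, 0.0485 and 0.296 CPM in normal RGCs, 1.41, 0.618 and 0.911 CPM in aging RGCs, and 1.08, 0.992 and 1.43 CPM with USCs medium. Normal replicate 1 lay within the range of aging RGCs, and all libraries with USCs medium were above the normal ones. Ccl8 was the one gene of the 24 tested that was at least 2-fold higher with an adjusted p under 0.05 in a comparison, with a log2 fold change of 1.37 in aging against normal RGCs (SE 0.505, adjusted p = 0.0268) and 1.63 with USCs medium against normal RGCs (SE 0.489, adjusted p = 0.0051). The first call was lost without normal replicate 2 (0.15), normal replicate 3 (0.0851), aging replicate 1 (0.165) or aging replicate 3 (0.0514).

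Ccl28 (chr13:119623819-119654359), a mucosal ligand of Ccr10, was at 0.52, 0.582 and 0.444 CPM in normal RGCs, 0.0541, 0.155 and 0.253 CPM in aging RGCs, and 0.257, 0.595 and 0.256 CPM with USCs medium. Aging RGCs were below both other groups in CPM, but aging replicate 3 and medium-treated replicates 1 and 3 each held 5 counts and differed only by library scaling. Ccl28 fell by 1.69 on the log2 scale in aging RGCs (SE 0.621, adjusted p = 0.027), but the call was lost in DESeq2 (0.0517) and without normal replicate 1 (0.0558), normal replicate 2 (0.0727), aging replicate 1 (0.12) or aging replicate 2 (0.0699). With USCs medium its log2 fold change against aging RGCs was 1.22 (95% interval -0.41 to 2.85, adjusted p = 0.127).

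Ccl3 (macrophage inflammatory protein 1-alpha), a ligand of Ccr1, was at 14.5, 10.5 and 6.96 CPM in normal RGCs, 9.68, 6.7 and 8.25 CPM in aging RGCs, and 9.35, 6.05 and 8.25 CPM with USCs medium. All groups overlapped. Ccl3 fell by 0.44 with USCs medium against normal RGCs (SE 0.182, adjusted p = 0.0369), and this was lost in DESeq2 (0.237) and without normal replicate 1 (0.498), medium-treated replicate 2 (0.23) or medium-treated replicate 3 (0.058). In aging against normal RGCs its adjusted p was 0.0839, which became 0.00317 without normal replicate 3 and 0.0447 without aging replicate 1, and with all libraries 0.00487 if no low-count filter was applied and 0.0479 if the replicate number entered as a block. Ccl9, a Ccr1 ligand of mouse macrophages, was at 11.4, 7.03 and 5.72 CPM in normal RGCs, 9.63, 4.79 and 5.67 CPM in aging RGCs, and 6.83, 5.11 and 6.45 CPM with USCs medium, and did not pass the test as run here in any comparison. It passed in aging against normal RGCs without aging replicate 1 (0.0177), and in USCs medium against normal RGCs without normal replicate 2 (0.0494) or normal replicate 3 (0.0175). With all libraries, its difference between USCs medium and normal RGCs (-0.40) also passed with the replicate number as a block (0.0431), without the low-count filter (0.00811) and without TMM factors (0.0423).

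Ccl25, the ligand of Ccr9, was at 4.76, 4.22 and 4.24 CPM in normal RGCs, 4.54, 4.27 and 4.41 CPM in aging RGCs, and 3.6, 4.81 and 3.94 CPM with USCs medium, with a 95% interval of -0.50 to 0.31 between USCs medium and aging RGCs. Ccl27a, a skin chemokine, was at 1.13, 0.678 and 1.97 CPM, at 0.757, 1.08 and 1.57 CPM, and at 0.925, 0.695 and 0.922 CPM in the same order of groups. Ccl4 was at 0.645 to 1.86 CPM over the 9 libraries. None of these 3 passed the test in any comparison. The exons of Ccl25 overlap those of Elavl1, and the exons of Ccl27a those of Il11ra1, on the opposite strand, so their reads cannot be assigned with certainty.

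Of 18 conventional receptors 5 were tested, and 4 of them fell with USCs medium against aging RGCs, where 26.0% of all genes tested fell. Cxcr4 (chr1:128588199-128592293), the receptor of Cxcl12, was at 0.65, 0.678 and 0.691 CPM in normal RGCs, 1.08, 0.773 and 0.709 CPM in aging RGCs, and 0.103, 0.198 and 0.512 CPM with USCs medium. The libraries with USCs medium were below all others. The aging ones were all above the normal ones in CPM, although this difference of 0.34 did not pass the test (adjusted p = 0.535). Their counts before scaling were 20, 15 and 14 in aging RGCs and 15, 14 and 14 in normal RGCs. Cxcr4 fell by 1.63 on the log2 scale against aging RGCs (SE 0.498, adjusted p = 0.00702), which was lost without medium-treated replicate 1 (0.0534). Against normal RGCs it fell by 1.29 (SE 0.510, adjusted p = 0.0303), and this was lost without normal replicate 1 (0.0542), 2 (0.0584) or 3 (0.0628) and without medium-treated replicate 1 (0.154) or 2 (0.107).

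Ccr1 (chr9:123962124-123968692), a receptor of Ccl3, Ccl5, Ccl7 and Ccl9, was at 1.47, 1.99 and 1.23 CPM in normal RGCs, 1.41, 1.96 and 1.11 CPM in aging RGCs, and 1.08, 0.397 and 0.41 CPM with USCs medium. Medium-treated replicate 1 lay just below the lowest aging library, and normal and aging RGCs overlapped. Ccr1 fell by 1.24 against aging RGCs (SE 0.389, adjusted p = 0.00837) and by 1.31 against normal RGCs (SE 0.382, adjusted p = 0.0041). The former was lost without aging replicate 2 (0.0678), medium-treated replicate 2 (0.0569) or medium-treated replicate 3 (0.05).

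Cxcr3, the receptor of Cxcl9, Cxcl10 and Cxcl11, was at 1.26, 1.99 and 1.53 CPM in normal RGCs, 1.68, 1.7 and 1.82 CPM in aging RGCs, and 0.873, 0.695 and 1.18 CPM with USCs medium, below all others. It fell by 0.92 against aging RGCs (SE 0.312, adjusted p = 0.0144), lost without medium-treated replicate 2 (0.0754). Against normal RGCs it fell by 0.79 (SE 0.312, adjusted p = 0.0302), lost without normal replicate 2 (0.151), normal replicate 3 (0.0514), medium-treated replicate 1 (0.0744) or medium-treated replicate 2 (0.128). Cxcr3 and the counts assigned to its ligand Cxcl10, whose origin is uncertain, were thus both lower with USCs medium.

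Ccr10, the receptor of Ccl27a and Ccl28, was at 0.91, 1.41 and 1.09 CPM in normal RGCs, 2.05, 1.29 and 1.47 CPM in aging RGCs, and 0.668, 0.992 and 0.768 CPM with USCs medium. Normal RGCs overlapped both other groups, which did not overlap each other. Ccr10 fell by 0.97 against aging RGCs (SE 0.335, adjusted p = 0.0157), lost without aging replicate 1 (0.104) or medium-treated replicate 1 (0.0652). Cxcr2, the receptor of the ELR-positive ligands, was at 0.198 to 1.11 CPM over the 9 libraries and its groups overlapped. Its difference between USCs medium and normal RGCs was -0.82 (95% interval -2.03 to 0.38, adjusted p = 0.15), which passed without medium-treated replicate 3 (0.0194).

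The remaining 39 genes were not tested. Of these, 12 had 0 counts in all 9 libraries, which were Ccl1, Ccl19, Ccl21a, Ccl21b, Ccl21d, Ccl26, Ccl27b, Xcl1, Ackr1, Ackr2, Ccr6 and Ccr8. Another 13 had at most 1 to 4 counts in a library, and 14 had at least 5 counts in some library. Of the atypical receptors, Ackr3, which binds Cxcl12, had 1 to 8 counts and Ackr4 had 1 to 9 counts. Ccr4 had 5, 2 and 16 counts in normal RGCs, 8, 7 and 12 in aging RGCs, and 8, 9 and 6 with USCs medium. Its ligand Ccl22 had 8, 3 and 2 counts, 6, 9 and 6 counts, and 4, 1 and 1 counts in the same order. Cxcr6 had 0 to 8 counts, and Ccl11 and Ccr3 had at most 5. Without the low-count filter, Ccl6 (adjusted p = 0.0213) and Cxcl17 (0.02) passed in aging against normal RGCs. Cxcl11 (0.00834) and Cxcl12 (0.0263) passed with USCs medium against aging RGCs, and Cxcl12 (0.0291) and Cxcl17 (0.00209) against normal RGCs. These calls rest on 0 to 13 counts in a library, and all counts of Cxcl12 in aging RGCs came from replicate 1.

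Chemokine genes lie in clusters, and the values of neighbours are given here side by side, with no test of the differences between them. In the cluster on chr5:90759360-90905938, Cxcl5 and Pf4 fell with USCs medium against aging RGCs, Cxcl1 rose, and Ppbp and Cxcl2 did not pass the test. On chr11:83525778-83664683, Ccl5 fell, whereas Ccl3, Ccl4 and Ccl9 had log2 fold changes of -0.06, -0.18 and -0.12 that did not pass. On chr11:82035571-82305690 the log2 fold changes of Ccl2, Ccl7 and Ccl8 were 0.05, 0.29 and 0.26 in the same comparison and none passed, while Ccl2 and Ccl7 both fell in aging against normal RGCs. On chr8:94745590-94812036 Cx3cl1 lies between Ccl22 and Ccl17, which were not tested. Coordinates of genes and clusters are on GRCm38, from GENCODE M21.

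Markers of leukocytes were also measured, because chemokine receptors are mostly leukocyte genes. Of 18 such markers 12 were tested, and 9 fell at least 2-fold in aging against normal RGCs (75.0%, beside 1.56% of all genes tested). By adjusted p, in USCs medium against aging RGCs 3 rose (25.0%, beside 27.1%) and 1 fell (8.33%, beside 26.0%). The 3 that rose were Adgre1, C1qb and Cd14. The rises of Adgre1 and C1qb rested on medium-treated replicate 3, with 2, 2 and 32 counts and 0, 0 and 15 counts in that group. Against normal RGCs 1 rose (8.33%, beside 30.6%) and 7 fell (58.3%, beside 29.9%). Their sum ranged from 79.3 to 92.5 CPM in the normal group, from 59.4 to 67.6 CPM in the aging group and from 46.6 to 79.8 CPM with USCs medium, and the T cell marker Cd3e had 0 counts in all libraries. The highest markers in aging RGCs were Cd68 (41.5 ± 1.5 CPM) and Cd14 (12.7 ± 0.478 CPM). Against normal RGCs, Cd68 (0.10, adjusted p = 0.237), Cd14 (0.01, adjusted p = 0.953) and Ptprc (-0.44, adjusted p = 0.33) did not pass. With USCs medium against aging RGCs, Cd68 fell by 0.41 (adjusted p = 2.4e-05) and Cd14 rose by 0.25 (adjusted p = 0.0296). Medium-treated replicate 3 stood apart from the other 2 of its group. The macrophage marker Adgre1 had 57, 19 and 43 counts in normal RGCs, 2, 0 and 1 in aging RGCs, and 2, 2 and 32 with USCs medium. Lyz2, or lysozyme, had 522, 210 and 265, then 118, 23 and 38, then 45, 20 and 241 counts.

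The macrophage ligand Ccl6 was also higher in normal RGCs and in medium-treated replicate 3, with 13, 3 and 5 counts in normal RGCs, 0, 2 and 0 in aging RGCs, and 0, 0 and 8 with USCs medium. It was not tested. Ccr1 did not follow this pattern with USCs medium, where it had 21, 8 and 8 counts. Fewer cells of a type and less RNA per cell cannot be told apart in bulk libraries, and the part of leukocytes in these results was not tested. Without medium-treated replicate 3, 8 of the genes fell and 1 rose at adjusted p with USCs medium against aging RGCs, and 7 fell at least 2-fold. The shares of all genes in that fit were not counted.

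**Figure D4:**
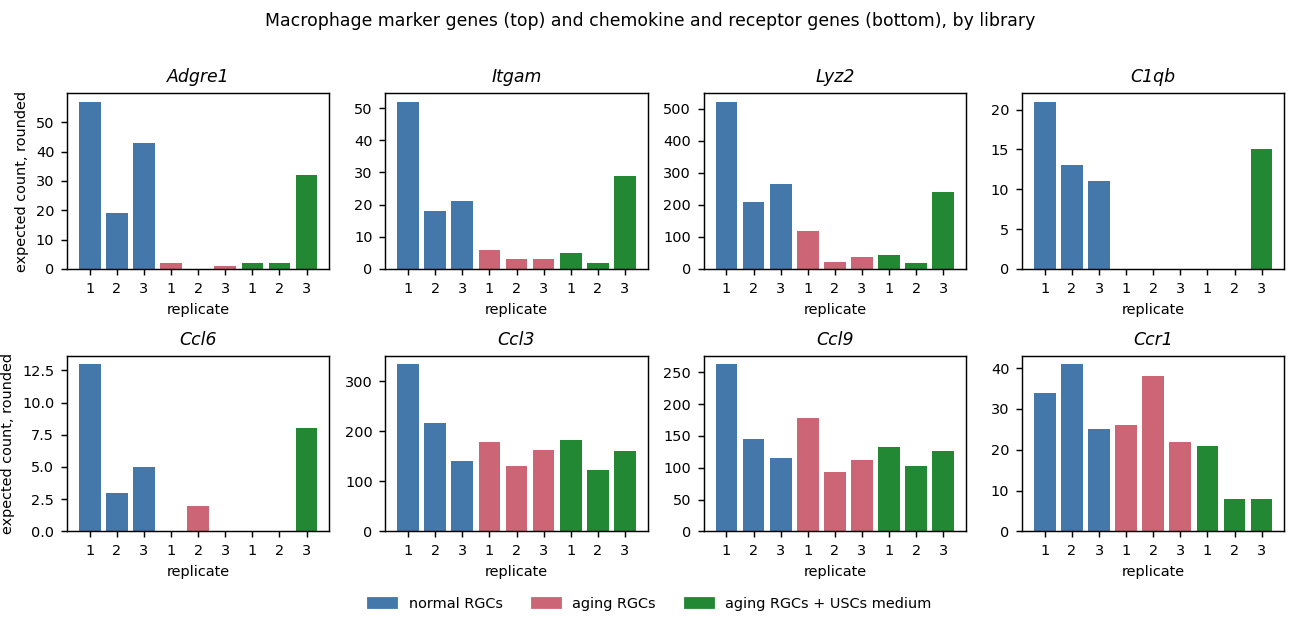
Rounded expected counts in each of the 9 libraries of 4 macrophage markers (Adgre1, Itgam, Lyz2 and C1qb, top) and 4 chemokine genes (Ccl6, Ccl3, Ccl9 and Ccr1, bottom), with bars coloured by group. Adgre1, Itgam and C1qb are low or at 0 in aging RGCs and in medium-treated replicates 1 and 2, and Ccl6 has 8 counts in medium-treated replicate 3 and 0 in the others of that group.

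Of the 51 genes of signal transduction below chemokine receptors in the expression table (G protein subunits, RGS proteins, kinases and Rac regulators), 42 were tested. In aging against normal RGCs 2 rose (4.76%, beside 23.6% of all genes tested) and 14 fell (33.3%, beside 23.0%). With USCs medium against aging RGCs 8 rose (19.0%, beside 27.1%) and 15 fell (35.7%, beside 26.0%), and against normal RGCs 7 rose (16.7%, beside 30.6%) and 19 fell (45.2%, beside 29.9%). The medians were -0.08, -0.12 and -0.27 on the log2 scale. Prkcb, protein kinase C beta, was at 23.2 ± 0.121 CPM in normal RGCs, 15.9 ± 0.972 in aging RGCs and 3.24 ± 0.766 with USCs medium, and fell by 2.29 against aging RGCs (adjusted p = 5.54e-15). Rgs5, which shortens G protein signalling, was at 1.59 ± 0.295, 1.47 ± 0.12 and 0.186 ± 0.061 CPM and fell by 2.94 (adjusted p = 1.65e-06). Gng11, a G protein gamma subunit, fell by 1.03 (adjusted p = 9.85e-05). Dock2, a Rac activator of leukocytes, fell by 1.75 in aging against normal RGCs (adjusted p = 0.0261) and had 19 counts in medium-treated replicate 3, where the others had 5 and 4. Rgs1, an RGS protein of leukocytes, fell by 1.32 in aging against normal RGCs (adjusted p = 0.0326) and Rac2 fell by 1.10 with USCs medium against normal RGCs (adjusted p = 0.0155). Rgs3 fell by 1.07 in the latter comparison (adjusted p = 1.54e-11).

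Of 46 genes that induce or limit chemokine transcription through NF-kB, AP-1, cytokine and Toll-like receptors, all 46 were tested. Between aging and normal RGCs 12 rose (26.1%, beside 23.6% of all genes tested) and 18 fell (39.1%, beside 23.0%). Under USCs medium 21 rose (45.7%, beside 27.1%) and 10 fell (21.7%, beside 26.0%) against aging RGCs, and 16 rose (34.8%, beside 30.6%) and 10 fell (21.7%, beside 29.9%) against normal RGCs. The medians were -0.04, 0.09 and 0.02. With USCs medium against aging RGCs, the transcription factor Cebpd rose by 1.39 on the log2 scale (adjusted p = 5.93e-13), from 10.3 ± 0.602 to 27.0 ± 2.29 CPM. Zfp36, which destabilises cytokine mRNAs, rose by 1.16 (adjusted p = 9.81e-16), and Fos, an AP-1 subunit, by 1.05 (adjusted p = 6.56e-05). Nfkbie, an inhibitor of NF-kB, fell by 1.10 (adjusted p = 9.56e-09), and Il1rn, the interleukin 1 receptor antagonist, fell by 1.08 (adjusted p = 4.97e-07). Bcl3, an NF-kB cofactor, rose by 1.00 (adjusted p = 2.11e-09). Against normal RGCs, Il1a fell by 1.09 (adjusted p = 0.00095) and Tlr2 fell by 1.00 (adjusted p = 2.53e-11). Regulators that activate and that limit transcription were found in both directions.

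For the interferon pathway, 16 of 18 genes were tested. Aging against normal RGCs had 1 that rose and 1 that fell (6.25% each, beside 23.6% and 23.0% of all genes tested). USCs medium had 4 that rose and 4 that fell against aging RGCs (25.0% each, beside 27.1% and 26.0%), and 4 that rose (25.0%, beside 30.6%) and 7 that fell (43.8%, beside 29.9%) against normal RGCs. The medians were -0.09, -0.03 and -0.06. Irf7, an interferon-induced transcription factor, fell by 0.84 with USCs medium against aging RGCs (adjusted p = 0.00741) and by 1.02 against normal RGCs (adjusted p = 0.000944). Ifnb1 had 0 counts in all libraries.

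Genes that cleave, present or sequester chemokines were tested for 22 of 24. For aging against normal RGCs 3 rose (13.6%, beside 23.6% of all genes tested) and 10 fell (45.5%, beside 23.0%). With USCs medium 3 rose (13.6%) and 12 fell (54.5%) against either group, beside 27.1% and 26.0% of all genes against aging RGCs and 30.6% and 29.9% against normal RGCs. The medians were -0.11, -0.09 and -0.20. Of the matrix metalloproteinases, which trim chemokines, 7 were tested. With USCs medium against aging RGCs 5 fell and 0 rose, beside 26.0% and 27.1% of all genes tested. Mmp3 fell by 4.75 (adjusted p = 1.79e-20), Mmp9 fell by 3.07 (adjusted p = 4.32e-15), Mmp13 fell by 2.24 (adjusted p = 2.63e-16) and Mmp1a fell by 1.78 (adjusted p = 0.00471). Mmp2 fell by 0.75 (adjusted p = 1.54e-07), and the differences of Mmp14 (0.06, adjusted p = 0.156) and Mmp12 (0.10, adjusted p = 0.913) did not pass. Mmp3 was at 31.4 ± 2.45 CPM in normal RGCs, 28.8 ± 1.63 in aging RGCs and 1.07 ± 0.438 with USCs medium. Ccrl2, a receptor-like protein that presents chemerin, fell by 1.98 (adjusted p = 0.00231). Against normal RGCs, Mmp2 fell by 1.15 (adjusted p = 1.26e-11) and Cd74, a receptor of the cytokine Mif, fell by 1.64 (adjusted p = 9.22e-11).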

How the data were processed

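RNA-sequencing libraries of 9 mouse samples were analysed, 3 per group by their titles. The table deposited by the authors gives 2 values per gene and library, an expected count (the estimated number of reads, without normalization) and FPKM (divided by transcript length and library size). The submitters' processing notes name the build mm10, and the aligner and counting program were not given in the sources used here. Expected counts were rounded. Genes were filtered with filterByExpr and tested in edgeR 4.0.16 (R 4.3.3) with TMM factors (0.9562 to 1.034), 1 mean per group over all 9 libraries (6 residual df) and the quasi-likelihood F test, whose Benjamini-Hochberg adjusted p covers 12145 genes. The test was checked on simulated data. SE is the absolute log2 fold change over the square root of F, and 95% intervals use t with 6 df, which is stricter than the moderated test.

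Every chemokine and receptor gene was accounted for by role. Values by library are given for genes changed at adjusted p under 0.05 and 2-fold, and for further genes at 1 CPM or more, and for untested genes with at least 5 counts. Genes outside this family come from 4 fixed lists (chemokine signal transduction, inducers of chemokine transcription, interferon inducers, and chemokine processing and presentation) and from cell type markers, and are named where they passed with 2-fold or define a cell type. The members and lists were chosen with earlier results of these data known. Promoter sequences are from RefSeq. As alternatives, normalization was changed to library totals or upper-quartile factors, and the filter was dropped or set to 1 CPM in 3 libraries. The test was changed to the likelihood ratio test, to DESeq2 1.42.0, and to limma 3.58.1 on log2(FPKM + 1) or log2(FPKM + 0.1). Fits with only the compared groups, with a replicate block, with a 1.5-fold threshold and without single libraries were also made. Some items are not reported here.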

Additional observations from a re-analysis of the deposited data

How the results depend on the processing

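Of 1130 values of single genes under the alternatives, over 72 values reported, 1022 kept their direction and side of the threshold, 53 lost the call, 18 gained it and 37 changed sign, of which 0 were calls with all libraries. The falls of Ccl20, Cx3cl1 and Cxcl10 and the rise of Cxcl1 with USCs medium passed under every alternative run, against either group. The depth limits the 39 genes not tested. Counts that moved and signs that changed are given below by setting, and except where stated the cause was not tested.

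For aging against normal RGCs with the 2-fold threshold, where 1 gene rose and 2 fell, the number that rose was 2 without the low-count filter, which tests more genes (Cxcl17 was added), 2 at a 1.5-fold threshold and 0 in limma on log2(FPKM + 1). The number that fell was 0 with a filter of 1 CPM in 3 libraries, which leaves low genes untested, 1 with only the groups compared, 1 in DESeq2, 0 in limma on log2(FPKM + 1) and 1 in limma on log2(FPKM + 0.1). By adjusted p alone, where 4 rose and 4 fell, 2 rose in limma on log2(FPKM + 0.1), and 2 fell with a filter of 1 CPM and 2 in DESeq2. For USCs medium against aging RGCs, 2 fell at least 2-fold in limma on log2(FPKM + 1), whose pseudocount shrinks low genes, in place of 6, and the number that rose by adjusted p was 2 without the low-count filter and 2 with only the groups compared, in place of 1. Against normal RGCs with the 2-fold threshold, 2 rose without the low-count filter and 0 in limma on log2(FPKM + 1), in place of 1, and 4 fell with a filter of 1 CPM and 3 in limma on log2(FPKM + 1), in place of 7.

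With 1 library left out, the counts for aging against normal RGCs were 0 to 1 up and 0 to 2 down with the 2-fold threshold, and 1 to 4 up and 2 to 4 down by adjusted p. For USCs medium against aging RGCs 1 to 2 rose by adjusted p. Against normal RGCs 4 to 9 fell at least 2-fold and 6 to 10 by adjusted p.

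Calls of single genes also changed with all libraries in use. In aging against normal RGCs, adjusted p became 0.0739 and 0.0754 for Cx3cl1 in limma with a pseudocount of 1 and 0.1, 0.0845 for Ccl20 with 0.1, 0.114 for Ccl28 with 1, 0.0517 for Ccl28 and 0.0564 for Ccl7 in DESeq2, and 0.0563 for Ccl28 and 0.00487 for Ccl3 without the low-count filter. In USCs medium against normal RGCs it became 0.237 for Ccl3 in DESeq2, 0.114 and 0.109 for Ccl3 and 0.0213 and 0.0237 for Cxcl5 in limma with 1 and 0.1, 0.0371 for Cxcl5 and 0.0423 for Ccl9 without TMM factors, and 0.0505 for Cxcr4 and 0.00811 for Ccl9 without the low-count filter. In USCs medium against aging RGCs, Ccl7 passed without the low-count filter (0.0392) and with only the groups compared (0.049).

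Signs changed only for values that had not passed. For Ccl2 with USCs medium against aging RGCs the log2 fold change was -0.03 without TMM factors, -0.03 in limma on log2(FPKM + 1) and -0.03 in limma on log2(FPKM + 0.1), and for Ccl27a in aging against normal RGCs 0.0 in limma on log2(FPKM + 0.1). With 1 library left out, the ranges in aging against normal RGCs were -0.04 to 0.06 for Ccl25, -0.44 to 0.32 for Ccl27a, -0.57 to 0.29 for Ccl4, -0.63 to 0.06 for Ccl9, -0.32 to 0.13 for Ccr1, -0.09 to 0.11 for Cxcl1, -0.07 to 0.24 for Cxcl10, -0.48 to 0.08 for Cxcl2 and -0.02 to 0.32 for Cxcr3. In USCs medium against aging RGCs they were -0.20 to 0.10 for Ccl3, -0.31 to 0.23 for Ccl9, -0.17 to 0.29 for Cxcl2 and -1.16 to 0.16 for Cxcr2. In USCs medium against normal RGCs they were -0.74 to 0.12 for Ccl4, -0.14 to 0.07 for Ccl7, -0.37 to 0.07 for Cxcl2 and -0.17 to 0.09 for Ppbp.

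It was not stated whether replicate numbers mark a pairing. Over all genes tested, the deviations of same-numbered libraries from their group means correlated at -0.04 to 0.05. Such a correlation cannot exclude an effect shared by same-numbered libraries on single genes. Replicate 1 was the highest library of each group for Ccl3, Ccl9 and Cxcl2, and replicate 2 was the highest of each group for Cxcl1. For Ccl20 the highest was replicate 2 in normal and aging RGCs and replicate 1 with USCs medium. With the replicate number as a block, Ccl3 passed in aging against normal RGCs (adjusted p = 0.0479) and Ccl9 in USCs medium against normal RGCs (0.0431). The counts were that aging against normal RGCs had 4 genes up and 5 down by adjusted p, USCs medium against aging RGCs 1 up and 10 down, and USCs medium against normal RGCs 2 up and 11 down. Under the block the log2 fold change was 0.0 for Cxcl1 in aging against normal RGCs and 0.0 for Cxcl2 in USCs medium against aging RGCs, where the values without it were -0.00 and -0.02.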
